A study of Homo sapiens with 6 samples.

Results

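SK-N-DZ, a human neuroblastoma cell line with MYCN amplification, was compared with 3 other MYCN-amplified neuroblastoma lines, BE(2)-C, CHP134 and Kelly, to describe what sets apart the line with the lowest MYCN RNA of the 4. A locus was taken as standing apart when its value in SK-N-DZ lay outside the range of the 3 comparison lines. Its gap was the distance from the nearest of these lines on the scale log2(FPKM + 0.5), on which 1 is a doubling for loci well above 0. FPKM, fragments per kilobase of transcript scaled to the total of mapped fragments, is the unit in which the deposited values were read. Of 19170 loci deposited, 16223 carried a gene name, and 13370 of these reached 1 FPKM in at least 1 of the 4 lines. SK-N-DZ lay above the range at 2088 loci (15.6%) and below it at 4294 (32.1%), 6382 in all. With a gap of at least 1, 239 loci remained above (1.79%) and 428 below (3.2%), together 667, and with a gap of at least 2 there were 68 above and 72 below. The rule used these values, so the counts and gaps are a description with no test. Of the 13370 loci, 2733 span more than 1 gene and give a single value for them together. Among them, though not marked in the text below, are the loci of NBAS, ALK, NSD1, GCH1, GAP43, MDM2, COL11A1 and SPOPL.

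Ribosome-depleted RNA of 6 untreated neuroblastoma lines was sequenced, with 1 library per line. SK-N-DZ, BE(2)-C, CHP134 and Kelly carry the MYCN amplification, while SK-N-AS and SY5Y do not and serve here only as a reference outside the comparison. SK-N-DZ, BE(2)-C, SK-N-AS and SY5Y were grown in DMEM and CHP134 and Kelly in RPMI, so that BE(2)-C is the only comparison line that shares the medium of SK-N-DZ. BE(2)-C and SY5Y are clonal sublines of older neuroblastoma lines. Each line stands for itself, and a difference between lines cannot be told apart from a difference between their cultures or libraries.

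Neuroblastoma arises from sympathoadrenal progenitors of the neural crest. Amplification of MYCN at 2p24, often together with neighbouring genes, gives very high levels of the transcription factor N-Myc, which dimerizes with MAX and activates genes of ribosome biogenesis, nucleotide synthesis and the cell cycle. Most such lines keep an adrenergic state, held by transcription factors such as HAND2, GATA3 and ISL1, and make the enzymes and granule proteins of catecholamine-producing cells.

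The library of SK-N-DZ lay slightly outside the comparison lines in some summary values. Its FPKM summed to 778472, within the 777111 to 999801 of the comparison lines, and 11962 loci reached 1 FPKM against 12021 to 12125. The small nuclear RNAs RNU4-1 and RNU4-2 took 41.0% of its sum and 22.6% to 38.0% of theirs. The median difference between SK-N-DZ and the mean of the comparison lines over all 13370 loci was -0.18 on the log2 scale, and it moved to -0.01 when the 4 libraries were scaled by median-ratio size factors. On that scaling, 302 loci lay above the range and 308 below it with a gap of at least 1, so that 49.5% of the loci past this gap were above in place of 35.8%. The larger number of loci below thus depends on the scaling, and gene lists are therefore given beside the median of all loci. All 11 markers of neuroblastoma were in the table and 10 reached 1 FPKM in SK-N-DZ, with a summed level of 405 FPKM against 681 to 1865 FPKM in the comparison lines. The sum rests on the most abundant markers. By the range rule 1 of the 11 lay above and 3 below (27.3%, against 32.1% of all loci). Their median difference was -0.18, as over all loci. Of the epithelial markers 1 of 6 reached 1 FPKM in SK-N-DZ, of the fibroblast markers 3 of 10, of the Schwann cell and melanocyte markers 2 of 8 and of the endothelial markers 0 of 2. The comparison lines had 1 to 2, 3 to 5, 3 to 5 and 0 such loci. The epithelial locus in SK-N-DZ was MUC1 merged with KRTCAP2, and ERBB3 and PDGFRA also lay in merged loci, so these values need not be those of the marker. Each sample was a cultured line, and in its bulk RNA fewer cells expressing a gene and less RNA per cell cannot be told apart.

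The limma test called copies of a spliceosomal RNA and nothing else. With limma on log2(FPKM + 0.5), 3 loci were called higher in SK-N-DZ (0.0224% of those tested) and 0 lower (0%), where a call needed an absolute log2 difference over 1 and a p under 0.05 after Benjamini-Hochberg adjustment, while 118 higher (0.883%) and 424 lower loci (3.17%) had an unadjusted p below 0.05. The spread in this fit came from the 3 comparison lines, and the single SK-N-DZ library was assumed to vary as they do. For a single locus, an exact permutation of 1 line against 3 cannot give a p below 0.25. The loci were copies of U6, the small nuclear RNA at the catalytic center of the spliceosome. They were a U6 locus at chr7:139133486-139133589, at 3074 FPKM in SK-N-DZ (adjusted p = 0.0245 from limma), a U6 locus at chr10:43069633-43134016, at 1117 FPKM (adjusted p = 0.0263), and RNU6-6 at chr2:201694732-201694839, at 816 FPKM (adjusted p = 0.0263), positions throughout being those of hg19. Each was listed at 0 in all 5 other lines, and so passed the filter through SK-N-DZ alone, on the values that the range rule used. A U6 locus on chromosome 14 stood at 85.6 FPKM, again against 0 in the others (adjusted p = 0.22). U6 has many near-identical copies, short reads cannot be placed firmly among them, and a value of 0 in this table can also be a failed estimate. The calls were lost when any comparison line was left out, with 0 loci called each time, with the smaller pseudocount tried (0 called) and with 1 FPKM required in 2 of the 6 lines (0 called). They rest on 1 library and support nothing further. The same holds for the calls of the next fit, drawn from the same values out of 13370 loci.

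When SK-N-AS and SY5Y were added to the fit as a set of their own that shares the estimate of the spread, 4 loci were called higher and 1 lower. The fourth higher locus was the U6 locus on chromosome 14, and the lower one was EYA1 (log2 difference -4.82, standard error 0.36, adjusted p = 0.035 from limma), which without these 2 lines had an adjusted p of 0.26.

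SK-N-DZ had less MYCN RNA than the comparison lines but far more of its neighbour DDX1 than BE(2)-C or Kelly. MYCN was at 184 FPKM in SK-N-DZ, 571 in BE(2)-C, 505 in CHP134 and 774 in Kelly. SK-N-DZ was thus below the others with a gap of -1.45, and still far above SK-N-AS (0.208 FPKM) and SY5Y (0.921 FPKM). The difference from the mean of the comparison lines was -1.72 (standard error 0.40) on the log2 scale and did not pass the test (adjusted p = 0.98 from limma). MYCNOS, transcribed antisense to MYCN over the same span, was at 52.8 FPKM against 87.9, 167 and 161 in BE(2)-C, CHP134 and Kelly. The library protocol keeps no strand, and reads of the stretch these genes share cannot be told apart. MAX, the obligate partner of N-Myc, was at 15.96 FPKM in SK-N-DZ and 32.3 to 39.8 FPKM in the others, and MLX, a related partner of other MAX-like factors, at 12.9 FPKM against 20.6 to 45.6 FPKM.

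DDX1, an RNA helicase gene on the telomeric side of MYCN that is often amplified with it, reached 3295 FPKM in SK-N-DZ and 10561 FPKM in CHP134, but 95.1 FPKM in BE(2)-C and 110 FPKM in Kelly. NBAS, which encodes a Golgi-to-ER transport protein, showed the same pairing, with 81.4 FPKM in SK-N-DZ, 83.9 in CHP134, 12.9 in BE(2)-C and 19.8 in Kelly. SK-N-DZ was within the range of the other lines at both genes. The lncRNA AC008278.2, between NBAS and DDX1 at chr2:15704294-15713992, stood at 26.2 FPKM in SK-N-DZ and did not exceed 0.267 FPKM in any other line, CHP134 included. On the other side of MYCN, AC010745.1, at chr2:16373520-16386156, was at 0.551 FPKM in SK-N-DZ, 10.4 in BE(2)-C and 3.38 in Kelly and was listed at 0 in CHP134. Both loci of AC010745.2, which starts at position 16402046, were listed at 0 in SK-N-DZ and CHP134 and were present in BE(2)-C (1.63 and 3.22 FPKM) and Kelly (0.893 and 1.22 FPKM). FAM49A, further on, was at 1.13 FPKM in SK-N-DZ, 5.20 in Kelly and no more than 0.181 in BE(2)-C and CHP134. The loci beyond MYCN were chosen after their values were seen.

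Over a list of 23 loci of 2p24 and its surroundings, 1 lay above the range and 14 below it (60.9% below, against 32.1% of all loci), with a median difference of -0.54 against -0.18. Under median-ratio scaling 2 lay above and 9 below, with a median of -0.35. RHOB, a small GTPase gene, was at 7.38 FPKM in SK-N-DZ, 62.5 in BE(2)-C, 21.2 in CHP134 and 25.7 in Kelly. SDC1, encoding the heparan sulfate proteoglycan syndecan-1, was at 4.18 FPKM against 7.81 to 18.9 FPKM, and WDR35, a gene of ciliary transport, at 3.66 FPKM against 7.27 to 15.1 FPKM. With BE(2)-C, Kelly and CHP134 each set against the other 3 lines in the same way, 6, 12 and 4 of the 23 loci lay above and 6, 0 and 3 below. Other genes of interest in this disease were within the range: lncNB1 was at 8.93 FPKM in SK-N-DZ against 5.08, 8.99 and 11.5 FPKM in BE(2)-C, CHP134 and Kelly, the receptor kinase gene ALK at 3.38 FPKM against 2.31, 2.03 and 7.69 FPKM, and LIN28B, a blocker of let-7 maturation, at 27.4 FPKM against 20.9, 16.5 and 52.8 FPKM.

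Besides the U6 copies, the largest gaps above the range were those of small RNAs, pseudogenes and clone-named loci, such as RNU5D-1, a U5 small nuclear RNA (210 FPKM against 0.726 to 6.79 FPKM), and of 3 protein-coding genes, FIGF, SLITRK6 and MAGEA3. FIGF, encoding the lymphangiogenic growth factor VEGF-D, was at 57.6 FPKM in SK-N-DZ against 0.168, 0.426 and 0.146 FPKM in BE(2)-C, CHP134 and Kelly, a log2 difference of 6.30 (standard error 0.60, adjusted p = 0.35 from limma). SLITRK6, a neuronal transmembrane protein, was at 18.6 FPKM, at most 0.102 FPKM in the comparison lines and 4.77 FPKM in SK-N-AS. Both genes were named for the size of their gaps and passed the filter through SK-N-DZ alone. So did the later genes of this paragraph whose comparison lines all stayed under 1 FPKM. The following genes were chosen after their values were seen, except FN1 and IGF2BP2, which are members of gene lists. GDF6, a ligand of the bone morphogenetic protein family, was at 9.78 FPKM against no more than 0.229 FPKM. FGF10, a fibroblast growth factor, was at 5.63 FPKM against no more than 0.224 FPKM, and a gene antisense to it shares its span. CXCL12, a chemokine, was at 5.49 FPKM against 0.625 to 0.845 FPKM. FN1, encoding the matrix protein fibronectin, was at 19.3 FPKM against 0.53, 2.38 and 1.82 FPKM, and reached 10.7 FPKM in SK-N-AS and 6.38 FPKM in SY5Y. NAP1L2, an X-linked histone chaperone gene, was at 6.402 FPKM and at no more than 0.0488 FPKM elsewhere, and NUDT10, also X-linked, at 7.01 FPKM against 0.426 to 0.741 FPKM. B3GAT2, a glucuronyltransferase gene that overlaps genes on the other strand, was at 18.6 FPKM against 0.0488 to 1.15 FPKM. Merged loci above the range held IGF2BP2, an oncofetal RNA-binding protein gene (4.87 FPKM against no more than 0.0829 FPKM), and PROM1, encoding the surface protein CD133, in a locus with FGFBP2 and a U6 copy (4.41 FPKM against no more than 0.434 FPKM).

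A cancer-testis gene and an imprinted gene were also above the range, and their promoters are shown because genes of these classes are known for control by DNA methylation, which acts at CG sites. MAGEA3, a cancer-testis antigen gene on the X chromosome, was at 50.9 FPKM in SK-N-DZ, 1.27 in BE(2)-C, 0.0779 in CHP134, 0.882 in Kelly, 5.47 in SK-N-AS and 49.2 in SY5Y. SY5Y thus matched SK-N-DZ here. MAGEA6, a near-identical copy chosen after its values were seen, was at 49.5 FPKM against 11.3, 0 and 6.87 FPKM, and reads may be split between these copies. H19, the imprinted lncRNA, was at 11.1 FPKM in SK-N-DZ, 0.511 in BE(2)-C, 0.205 in CHP134 and 0.421 in Kelly, and at 176 FPKM in SK-N-AS. The promoters are those of RefSeq on GRCh38.p14, 250 bases before to 50 bases after the start of the gene, written 5′ to 3′ on the strand of the gene with each CG, the only motif searched and its own reverse complement, in capitals. The MAGEA3 promoter (chrX:152698544-152698843, plus strand) holds 19 CG, with 42.9% of all RefSeq promoters of this length having as many or more, and the H19 promoter (chr11:2001217-2001516, minus strand) holds 6, with 66.3% of promoters having as many or more.
MAGEA3: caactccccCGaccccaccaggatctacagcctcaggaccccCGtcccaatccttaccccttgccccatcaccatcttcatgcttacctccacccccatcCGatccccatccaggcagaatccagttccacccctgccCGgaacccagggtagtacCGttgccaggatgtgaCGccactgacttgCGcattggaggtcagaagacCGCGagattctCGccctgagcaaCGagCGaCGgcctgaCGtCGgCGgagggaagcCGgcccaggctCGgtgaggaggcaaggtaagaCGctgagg
H19: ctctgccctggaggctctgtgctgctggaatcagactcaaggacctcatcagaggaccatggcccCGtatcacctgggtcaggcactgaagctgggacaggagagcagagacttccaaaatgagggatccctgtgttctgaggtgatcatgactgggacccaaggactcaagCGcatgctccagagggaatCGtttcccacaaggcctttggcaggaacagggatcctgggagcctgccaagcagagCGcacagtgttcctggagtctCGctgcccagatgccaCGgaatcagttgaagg
Methylation was not measured, and the letters say nothing of its state in these lines.

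**Figure D1:**
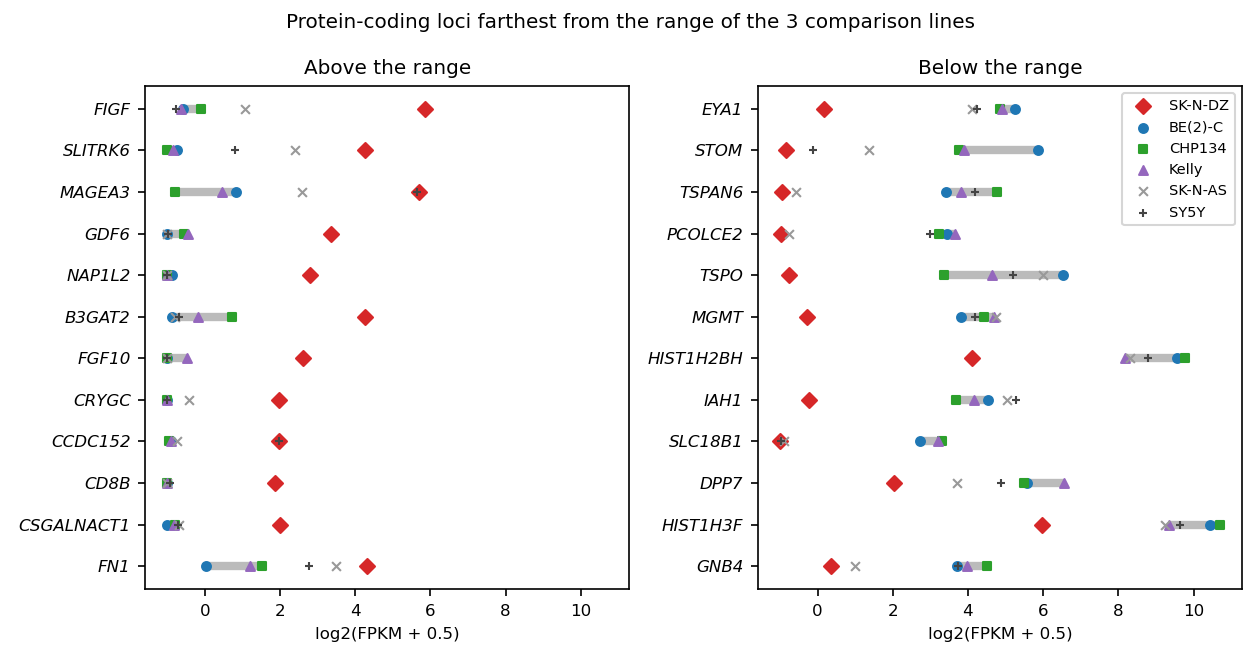
Levels of the 12 protein-coding single-gene loci with the largest gap above (left) and below (right) the range of the comparison lines, as log2(FPKM + 0.5) on the horizontal axis, with 1 symbol per line and library and the range of BE(2)-C, CHP134 and Kelly as a grey bar. SK-N-DZ lies apart from the bar by construction, for example FIGF at 57.6 FPKM and EYA1 at 0.637 FPKM, while SK-N-AS or SY5Y falls beside SK-N-DZ at MAGEA3 and SLC18B1.

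Below the range, the largest gap of any locus was that of IRAK1 merged with MIR718, chosen after its values were seen. IRAK1, a kinase of Toll-like and interleukin-1 receptor signalling, was at 0.131 FPKM in SK-N-DZ. The other lines had 49.96 FPKM (BE(2)-C), 37.9 FPKM (CHP134) and 20.3 FPKM (Kelly), with 41.8 FPKM in SK-N-AS and 23.9 FPKM in SY5Y (log2 difference -5.76, standard error 0.62, adjusted p = 0.39 from limma). EYA1, a transcriptional coactivator of neural crest and placode development, was at 0.637 FPKM against 37.8, 28.4 and 29.4 FPKM. In these genes the 5 other lines, amplified or not, were all above SK-N-DZ. STOM, encoding the membrane protein stomatin, was at 0.0552 FPKM against 13.2 to 58.0 FPKM, TSPAN6, a tetraspanin gene, at 0.0192 FPKM against 10.1 to 26.8 FPKM, and PCOLCE2, an enhancer of procollagen processing, at 0.0106 FPKM against 8.84 to 12.2 FPKM. SK-N-AS was low as well at TSPAN6 (0.175 FPKM) and PCOLCE2 (0.0899 FPKM), and SY5Y was low at STOM (0.421 FPKM). SLC18B1, a vesicular polyamine transporter gene, was listed at 0 in SK-N-DZ, at 6.11 to 9.33 FPKM in the comparison lines and at no more than 0.0432 FPKM in SK-N-AS and SY5Y. DPP7, a lysosomal peptidase gene, was at 3.61 FPKM against 44.3 to 93.9 FPKM, and GNB4, a G protein beta subunit gene, at 0.787 FPKM against 12.6 to 22.3 FPKM. IAH1, an esterase gene that overlaps ADAM17 on the other strand, was at 0.36 FPKM against 12.4 to 22.6 FPKM.

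Genes at or near 0 in SK-N-DZ and well expressed in all comparison lines included MGMT, TSPO and AGPAT2. MGMT, which removes alkyl groups from guanine in DNA, had 2 loci in the table. In SK-N-DZ they were at 0.320 and 0.0766 FPKM, and in BE(2)-C, CHP134 and Kelly at 13.6, 20.9 and 25.3 FPKM and at 9.35, 9.50 and 11.5 FPKM. SK-N-AS (26.2 and 18.4 FPKM) and SY5Y (17.9 and 8.69 FPKM) also had MGMT, so that SK-N-DZ was the only line of the 6 without a clear level. TSPO, the translocator protein of the outer mitochondrial membrane, was at 0.0882 FPKM in SK-N-DZ, 91.3 in BE(2)-C, 9.72 in CHP134, 24.5 in Kelly, 62.9 in SK-N-AS and 36.04 in SY5Y. AGPAT2, an acyltransferase of phosphatidic acid synthesis chosen after its values were seen, was listed at 0 in SK-N-DZ, at 9.18, 4.91 and 4.47 FPKM in the comparison lines, at 0.0294 FPKM in SK-N-AS and at 9.01 FPKM in SY5Y. Their promoters are shown in the same form, with CG in capitals, as examples chosen after their values were seen. The promoter of MGMT holds 45 (chr10:129466991-129467290, plus strand, GRCh38.p14), with 3.48% of RefSeq promoters having as many or more. Those of TSPO (chr22:43151309-43151608, plus strand) and AGPAT2 (chr9:136687408-136687707, minus strand) hold 33 each, with 17.2% having as many or more. For comparison, the protein-coding loci tested had a median of 27 CG, over the 83.4% with a promoter in the table. Those below the range by a gap of at least 1 had a median of 26, over the 77% with a promoter. Of these, 69.3% had 20 CG or more, against 74.2% of all tested, so the low genes as a set were not richer in CG. Other low genes have few, with 5 in the promoter of TSPAN6 and 11 in that of SLC18B1.
MGMT: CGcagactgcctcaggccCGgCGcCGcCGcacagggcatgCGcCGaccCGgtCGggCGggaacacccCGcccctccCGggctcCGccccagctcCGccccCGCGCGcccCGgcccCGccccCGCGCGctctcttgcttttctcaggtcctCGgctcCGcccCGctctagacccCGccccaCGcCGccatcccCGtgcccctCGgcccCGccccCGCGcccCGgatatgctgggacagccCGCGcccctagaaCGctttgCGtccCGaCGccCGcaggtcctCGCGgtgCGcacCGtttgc
TSPO: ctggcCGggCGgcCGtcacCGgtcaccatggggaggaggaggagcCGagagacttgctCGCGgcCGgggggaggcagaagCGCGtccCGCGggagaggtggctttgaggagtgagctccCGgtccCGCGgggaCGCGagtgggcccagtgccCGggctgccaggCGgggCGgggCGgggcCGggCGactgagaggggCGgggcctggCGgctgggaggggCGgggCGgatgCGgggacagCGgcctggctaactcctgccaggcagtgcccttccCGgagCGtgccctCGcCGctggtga
AGPAT2: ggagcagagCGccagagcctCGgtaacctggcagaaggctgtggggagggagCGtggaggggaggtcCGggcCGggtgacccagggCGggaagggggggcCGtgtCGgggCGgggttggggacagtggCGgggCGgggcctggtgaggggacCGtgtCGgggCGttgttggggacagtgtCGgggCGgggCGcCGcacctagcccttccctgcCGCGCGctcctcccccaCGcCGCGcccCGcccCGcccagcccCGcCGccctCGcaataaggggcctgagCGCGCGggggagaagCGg
No methylation data bear on these sequences.

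Further genes below the range were chosen after their values were seen, except DLK1, JAG2 and IFI6, which are members of gene lists. DLK1, an imprinted, Notch-related surface protein of chromaffin precursors, was at 0.412 FPKM in SK-N-DZ, 97.2 in BE(2)-C, 6.95 in CHP134 and 154 in Kelly. JAG2, a Notch ligand, was at 0.531 FPKM in its merged locus against 7.55 to 9.31 FPKM. NSD1, a histone H3 methyltransferase gene, was at 1.94 FPKM against 17.2 to 30.5 FPKM. ANXA2, encoding annexin A2, was at 1.004 FPKM against 84.7, 30.9 and 13.9 FPKM, GALNT14, a glycosyltransferase gene, was listed at 0 against 4.20 to 13.8 FPKM, and IFI6, an interferon-induced gene, was at 0.0616 FPKM against 4.65 to 8.53 FPKM. PLIN2, the coat protein of lipid droplets, was at 0.0217 FPKM against 1.74, 31.0 and 16.92 FPKM. FBXO8 and CEP44, neighbours on 4q that overlap on opposite strands, were at 5.97 FPKM against 35.5 to 76.7 FPKM and at 19.1 FPKM against 60.5 to 250 FPKM, respectively. None of these passed the test.

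Gene lists were described next, by how many of their tested loci lay outside the range and by the median difference, beside the 15.6% above, 32.1% below and median of -0.18 of all loci. None of the lists is a test of its pathway. In no list did a locus pass the limma test on the 4 lines in either direction. EYA1, called lower once SK-N-AS and SY5Y were added, is a member of the adrenergic list. That call rests on the single SK-N-DZ library, and the gap of EYA1 had already set it apart on the same values.

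Activated targets of MYC and MYCN were mostly lower in SK-N-DZ. Of 39 loci, 2 lay above the range and 21 below it (53.8%), with a median difference of -0.38, or -0.20 beside all loci, and -0.58 without BE(2)-C. The count and the size depended on the scaling: with median-ratio scaling 6 lay above and 17 below with a median of -0.19, and with quantile normalization 9 lay above and 14 below with a median of -0.10, so that the direction stayed. RCC1, the exchange factor of the GTPase Ran, in a locus shared with the snoRNA host SNHG3, was at 129 FPKM in SK-N-DZ, 491 in BE(2)-C, 759 in CHP134 and 1007 in Kelly. CAD, which carries out the opening steps of pyrimidine synthesis, was at 3.81 FPKM against 15.7, 10.7 and 13.3 FPKM. The nucleolar protein genes NCL and NOP16 were at 154 FPKM against 285 to 328 FPKM and at 12.6 FPKM against 23.8 to 34.8 FPKM. The 2 loci above, chosen after their values were seen, were CDK4 (173 FPKM against 121 to 150 FPKM), a cell cycle kinase, and SHMT2 (135 FPKM against 62.4 to 92.4 FPKM), a mitochondrial enzyme of serine metabolism. With BE(2)-C as the single line, 2 of the 39 loci lay above the range of the others and 12 below. The counts were 19 and 2 for CHP134 and 16 and 4 for Kelly. Over all 13370 loci the numbers above and below were 2860 and 4206 for BE(2)-C, 4410 and 2385 for CHP134 and 4011 and 2262 for Kelly.

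**Figure D2:**
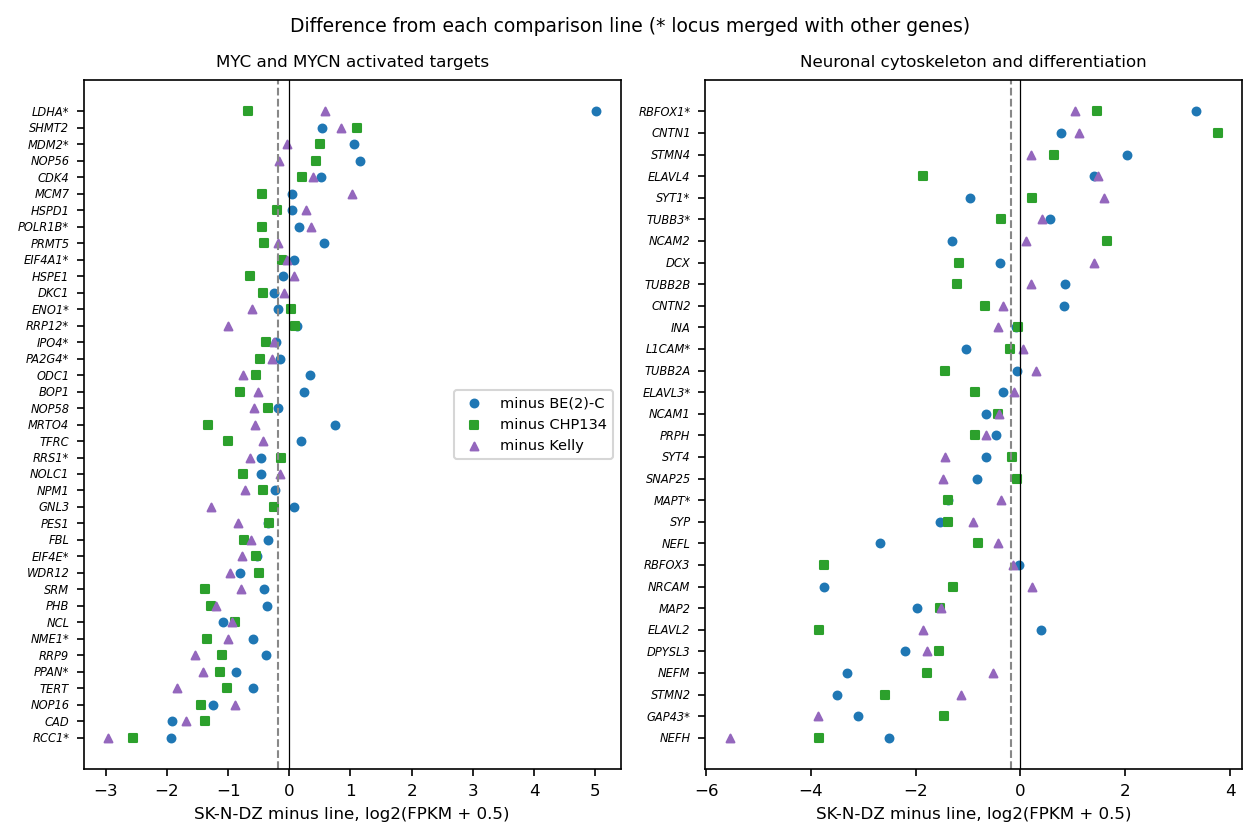
Difference between SK-N-DZ and each comparison line on the scale log2(FPKM + 0.5) for activated targets of MYC and MYCN (left, 39 loci) and genes of the neuronal cytoskeleton and differentiation (right, 30 loci). The solid line marks no difference, the dashed line the median of -0.18 over all loci, and a star a locus merged with other genes. All 3 symbols of RCC1, CAD, NCL and NOP16 lie left of 0, as do those of NEFH, GAP43 and MAP2.

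The adrenergic transcription factors were not lower as a set. Of 28 loci 8 lay above the range and 4 below, with a median difference of 0.52, which was 0.23 without CHP134, a line that itself lay below the other 3 at 11 of these loci. ISL1 was at 27.2 FPKM in SK-N-DZ, 19.9 in BE(2)-C, 22.8 in CHP134 and 26.8 in Kelly. HAND2 was at 65.8 FPKM against 88.5 to 145 FPKM and HEY1, a Notch target and repressor, at 0.356 FPKM against 0.84 to 6.73 FPKM. Besides EYA1, the zinc finger gene ZNF536 was nearly absent (0.0257 FPKM against 2.62 to 5.11 FPKM in its merged locus). GATA3 (15.5 FPKM), chosen after its values were seen, was within the range.

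The list of catecholamine genes had more loci below the range than above. Of 19 loci of catecholamine synthesis, storage and breakdown, 0 lay above the range and 8 below (42.1%, against 32.1% of all loci), with a median difference of -1.05. CHP134, set against the other 3 lines, had a lower median still, -1.79, and without it the median of SK-N-DZ was -1.74. GCH1 and PTS, which make the cofactor tetrahydrobiopterin, were at 2.08 FPKM against 6.01 to 18.4 FPKM and at 16.1 FPKM against 25.9 to 34.7 FPKM. CHGB, a protein of secretory granules, was at 7.34 FPKM against 15.1 to 54.4 FPKM. Tyrosine hydroxylase (TH), the rate-limiting enzyme, did not set SK-N-DZ apart: it was at 0.628 FPKM, between CHP134 (0.261 FPKM) and BE(2)-C (0.922 FPKM), with 72.5 FPKM in Kelly. MAOA, which degrades catecholamines, was at 47.99 FPKM in SK-N-DZ, 88.3 in Kelly, 2.33 in CHP134 and 0.110 in BE(2)-C. TH and MAOA were chosen after their values were seen.

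Neuronal cytoskeleton and differentiation genes were counted next, with 3 of 30 loci above the range and 16 below (53.3%), and a median difference of -0.58 that was -0.39 with median-ratio scaling. NEFH, the heavy neurofilament chain, was at 1.31 FPKM in SK-N-DZ, 9.79 in BE(2)-C, 25.6 in CHP134 and 84.2 in Kelly. GAP43, a growth cone protein, was at 12.0 FPKM against 107, 33.8 and 181 FPKM, and STMN2, a microtubule regulator, at 27.6 FPKM against 317, 169 and 61.1 FPKM. MAP2, a dendritic microtubule-binding protein, was at 23.6 FPKM against 68.8 to 93.4 FPKM and DPYSL3 at 4.82 FPKM against 15.1 to 24.2 FPKM. Among 18 cholinergic and peptidergic loci 0 lay above and 6 below, with a median of -0.68. The share below, 33.3%, was close to the 32.1% of all loci. CHRNB2, a nicotinic receptor subunit gene that overlaps ADAR on the other strand, was at 2.49 FPKM against 7.87 to 11.4 FPKM. The exceptions included CNTN1, a neuronal adhesion protein chosen after its values were seen, at 78.6 FPKM in SK-N-DZ, 45.9 in BE(2)-C, 5.33 in CHP134 and 36.2 in Kelly.

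Lists of ERK and retinoic acid signalling had loci below the range and 0 above. Of 17 loci of ERK feedback and output, 0 lay above and 10 below (58.8%), with a median difference of -1.12. Of these 10, 1 had a gap of at least 1, and the smallest gap was -0.04. CHP134, set against the other 3 lines, was low as well, with a median of -0.78. BE(2)-C had the opposite position, with 11 of 17 above the range of the other lines and a median of 1.29, and without it the median of SK-N-DZ was -1.04. ETV5, a transcription factor induced by ERK, was at 0.110 FPKM in SK-N-DZ, 26.7 in BE(2)-C, 0.807 in CHP134 and 17.95 in Kelly, in a locus merged with DGKG. DUSP4, a phosphatase of MAP kinases, was at 0.510 FPKM against 18.9, 1.13 and 3.06 FPKM, and the inhibitors SPRED1 and SPRY1 at 2.40 FPKM against 4.47 to 8.28 FPKM and at 0.729 FPKM against 1.56 to 2.59 FPKM. CHP134 was the line nearest to SK-N-DZ in all 4 of these. Of 10 loci of the retinoic acid pathway, 0 lay above and 7 below (70%), with a median of -0.67. Besides CRABP1, CRABP2 and RARG, the loci below had small gaps, from -0.04 to -0.26. BE(2)-C again had the opposite position, with 5 of the 10 above the other lines and a median of 1.06. The binding protein genes CRABP1 and CRABP2 were at 0.402 FPKM against 20.4, 1.78 and 149 FPKM and at 0.145 FPKM against 3.43, 7.89 and 4.73 FPKM, and the receptor gene RARG at 0.00174 FPKM against 2.98, 2.34 and 0.972 FPKM. The receptors RARA and RXRA, chosen after their values were seen, were closer, at 5.95 FPKM against 7.22 to 11.4 FPKM and at 3.53 FPKM against 4.05 to 8.84 FPKM.

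Receptor kinases went both ways, with 5 of 24 loci above and 7 below. GFRA2, the co-receptor of neurturin, was at 117 FPKM in SK-N-DZ, 2.43 in BE(2)-C, 69.2 in CHP134 and 40.2 in Kelly, and EPHA7, an ephrin receptor, at 11.5 FPKM against 0.00379, 1.57 and 3.19 FPKM. FGFR4, a receptor for fibroblast growth factors, was at 0.0139 FPKM against 1.51 to 1.90 FPKM, and ROR2, a receptor for Wnt ligands, at 0.0376 FPKM against 13.04, 1.38 and 2.46 FPKM. In the Wnt list LEF1, a nuclear effector with an antisense gene, was at 5.93 FPKM against 1.04, 0.201 and 1.29 FPKM and DKK1, a secreted inhibitor, at 0.781 FPKM against 4.76, 9.80 and 14.54 FPKM. In the Notch and Hedgehog list 6 of 20 loci were above and 3 below. The receptor gene NOTCH3 was at 1.25 FPKM against 0.094 to 0.139 FPKM and the target HES4 at 3.05 FPKM against no more than 0.182 FPKM, whereas JAG2 and HEY1 were low, as given above.

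Antigen presentation was described by 12 loci, 5 of them within the range. Of these 12 MHC class I loci 0 lay above the range and 7 below (58.3%), with a median of -0.83 that was -0.73 with median-ratio scaling and -0.47 without BE(2)-C, the line with the highest levels of 7 of the 12. B2M, the invariant chain, was at 90.7 FPKM in SK-N-DZ, 694 in BE(2)-C, 154 in CHP134 and 247 in Kelly. PSMB10, a subunit of the immunoproteasome in a merged locus, was at 19.4 FPKM against 45.0 to 62.9 FPKM, and NLRC5, the transactivator of these genes, at 0.00183 FPKM against 1.85, 0.199 and 0.207 FPKM. Among 10 interferon-stimulated loci IFI6 alone lay below and 0 above. The disialoganglioside GD2 and other immunotherapy targets had 5 of 16 loci above and 4 below. ST8SIA1, the GD3 synthase gene on the route to GD2, was at 8.14 FPKM in its merged locus against 0.142, 3.73 and 0.695 FPKM. ST3GAL5, which acts before it, was at 0.476 FPKM against 4.96, 5.72 and 1.10 FPKM, and CD276, chosen after its values were seen, at 21.7 FPKM against 7.45 to 13.9 FPKM.

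Stress and metabolic lists differed from each other. The amino acid response and serine synthesis list had 3 of 27 loci above and 14 below (51.9%), with a median of -0.42. BE(2)-C stood further apart in the other direction, with 16 of the 27 above the other lines, 2 below and a median of 0.74. DDIT4, an mTORC1 inhibitor, was at 6.12 FPKM in SK-N-DZ, 86.0 in BE(2)-C, 34.1 in CHP134 and 17.03 in Kelly, ATF3 at 1.12 FPKM against 4.27 to 5.42 FPKM and STC2 at 0.0998 FPKM against 10.5, 2.37 and 1.08 FPKM. Of 16 heat shock and unfolded protein response loci 0 lay above and 7 below (43.8%), with a median of -0.39 that was -0.20 without CHP134. XBP1 was at 24.8 FPKM against 37.3 to 64.1 FPKM. With median-ratio scaling 1 lay above and 4 below. Cholesterol synthesis was split, with 7 of 21 loci above and 7 below and a median of -0.25 that was -0.13 without BE(2)-C, -0.14 without CHP134 and turned to 0.04 with quantile normalization. ACAT2, which makes acetoacetyl-CoA, was at 119 FPKM against 49.02 to 53.7 FPKM and the isomerase gene IDI1 at 106 FPKM against 46.7 to 51.7 FPKM, while INSIG1, the brake on the pathway, was at 9.57 FPKM against 23.1 to 28.8 FPKM.

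Cell cycle lists, like the adrenergic factors, had more loci above the range than below. Of 20 loci of G1 cyclins, their kinases and inhibitors, 6 lay above the range and 0 below (30% above), with a median difference of 0.30, which was 0.49 with median-ratio scaling, 0.52 with quantile normalization and 0.16 without Kelly. CHP134 had a like position, with 10 of the 20 above the other lines, 3 below and a median of 0.26. CDKN2D, an inhibitor of CDK4 and CDK6, was at 3.75 FPKM against 1.31 to 1.82 FPKM, RB1 at 14.9 FPKM against 7.43 to 12.8 FPKM and RBL1 at 11.8 FPKM against 3.59 to 9.45 FPKM. Replication and mitosis had 10 of 37 loci above and 8 below with a median of 0.07. PCNA, the sliding clamp, was at 334 FPKM against 150 to 241 FPKM and FOXM1, a mitotic transcription factor, at 38.8 FPKM against 21.5 to 29.98 FPKM, while thymidine kinase 1 (TK1) was at 37.2 FPKM against 55.8 to 85.0 FPKM. With median-ratio scaling 19 lay above and 5 below.

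MDM2, a ubiquitin ligase gene, was within the range at 49.6 FPKM in SK-N-DZ against 23.6, 34.7 and 51.0 FPKM in BE(2)-C, CHP134 and Kelly. BTG2, an antiproliferative gene, was at 0.846 FPKM against 3.397 to 5.99 FPKM and ZMAT3, a zinc finger gene, at 0.629 FPKM against 1.23 to 2.25 FPKM. Of 19 apoptosis loci 3 lay above and 7 below. CFLAR, a caspase-8 inhibitor in a merged locus, was at 0.723 FPKM against 9.37, 8.65 and 2.69 FPKM. The inhibitors BIRC2 and XIAP were at 5.28 FPKM against 11.8 to 17.04 FPKM and at 4.22 FPKM against 6.79 to 9.03 FPKM. TNFRSF10D, a decoy receptor for TRAIL chosen after its values were seen, was at 1.83 FPKM and at or near 0 in the 5 other lines.

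Matrix and adhesion genes differed by member. Of 24 loci of collagens and matrix 6 lay above and 7 below. Besides FN1, COL11A1 was higher (1.51 FPKM against no more than 0.366 FPKM), while COL6A2 (0.676 FPKM against 3.10 to 7.84 FPKM) and COL18A1 (0.00225 FPKM against 1.06 to 7.48 FPKM) were lower. Among integrins and cadherins, ITGAV was at 25.6 FPKM against 6.31 to 15.4 FPKM and ITGA4 at 0.331 FPKM against 2.94 to 3.47 FPKM. The axon guidance list had 5 of 26 loci above and 9 below. The receptor gene NRP2 was at 25.8 FPKM against 4.67 to 11.5 FPKM in its merged locus, and the netrin receptor UNC5B at 3.33 FPKM against 12.2 to 23.4 FPKM. In the HOX list the merged HOXC locus was at 4.16 FPKM against 14.9 to 20.6 FPKM and HOXD13 at 0.0755 FPKM against 0.842, 1.76 and 7.23 FPKM.

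**Figure D3:**
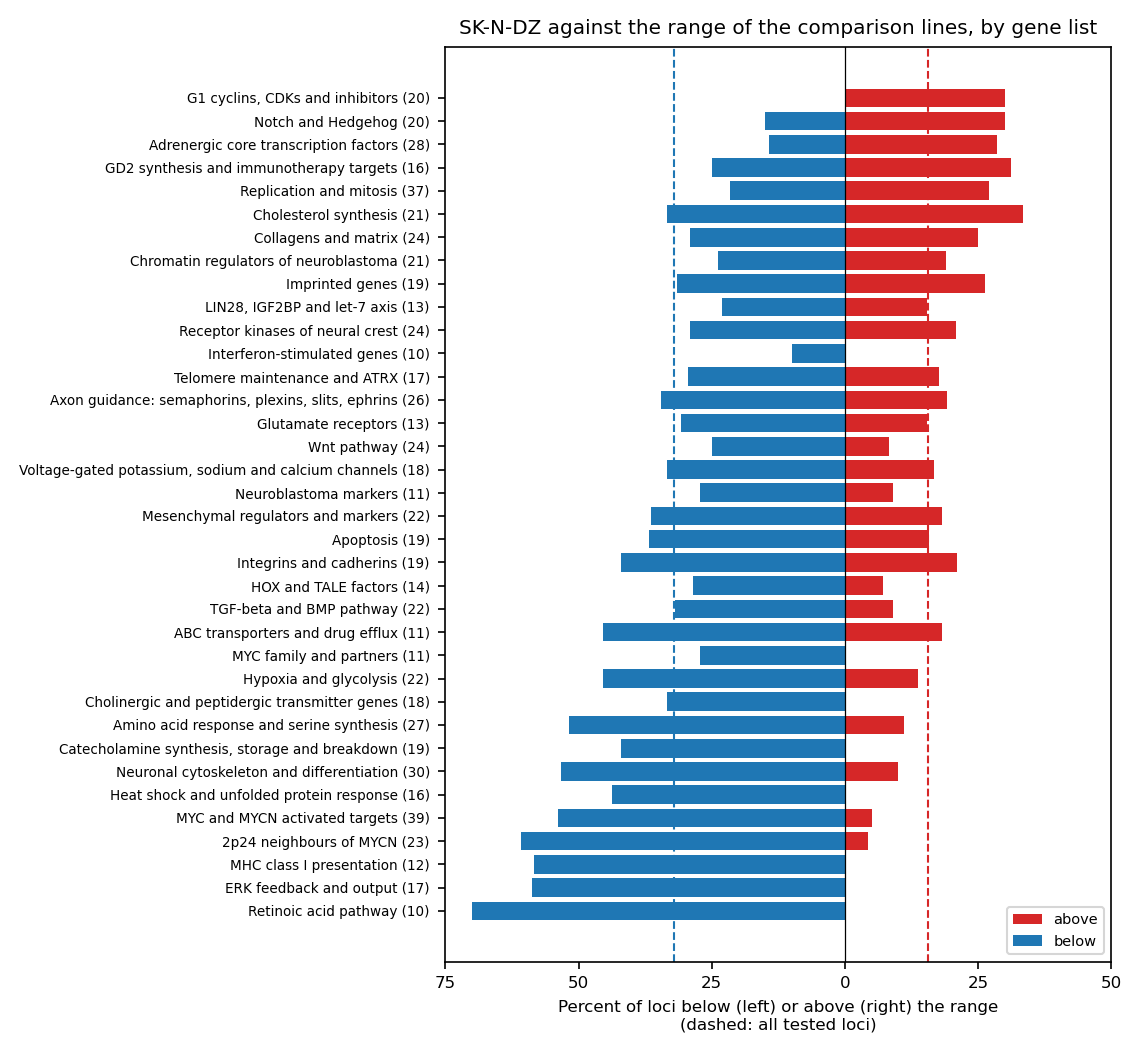
Percent of the tested loci of gene lists with at least 10 tested loci that lay above (right, red) or below (left, blue) the range of the comparison lines, with the number of loci in brackets. Dashed lines mark the 15.6% above and 32.1% below among all tested loci. The G1 cyclin list had 30% above and 0% below, and the retinoic acid list 70% below.

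Replication-dependent histone genes, whose mRNAs are not polyadenylated and are kept by ribosome depletion, had 7 of 60 loci above the range and 25 below, 10 of them with a gap of at least 1, and 0 above by this gap. These 10 were all in the HIST1 cluster of 6p. Over all loci 15.6% lay above the range and 32.1% below it, and 1.79% and 3.2% with a gap of at least 1. HIST1H2BH had loci at 16.8 and 2.96 FPKM in SK-N-DZ, against 750, 882 and 291 FPKM and 97.1, 157 and 46.9 FPKM in BE(2)-C, CHP134 and Kelly. HIST1H3F, in the same span at chr6:26248366-26253635, was at 62.2 FPKM against 1392, 1668 and 651 FPKM, and HIST1H2AJ at 91.8 FPKM against 976, 764 and 992 FPKM. Within the cluster, 8 neighbouring loci from HIST1H2BL to HIST1H2AK (chr6:27775257-27806117) were all below the range. Other histone loci on 6p were not low: HIST1H2AE was at 1583 FPKM against 1315 to 1516 FPKM and HIST1H2BO at 1781 FPKM against 1163 to 1332 FPKM. Histone genes were chosen after their values were seen, except for those among the largest gaps. HIST1 genes resemble each other closely and several overlap on opposite strands, so that single loci are uncertain.

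Neighbouring loci moved together on some chromosome arms. The difference of each line from the other 3 was centred on the median of all loci and summarised by its median on each of 41 arms with at least 50 loci, as a description, since loci of an arm are not replicates and no copy number was measured. The lowest arm in SK-N-DZ was 1q at -0.47, where 371 of 623 loci (59.6%) lay below the range and 20 above, and the next was 17q at -0.34, where 281 of 569 loci lay below. On 17q, CHP134 stood at 0.49, and on 1q Kelly at 0.42. The highest were 11p at 0.59 (80 of 225 loci above), 20p at 0.45, 20q at 0.44 and 13q at 0.37. All these signs held with median-ratio scaling and with a minimum of 5 FPKM. The longest runs of consecutive loci below the range were 13 on 1q from SLC39A1 to PMVK (chr1:153931575-154909471), 12 on 14q from STYX to WDHD1 (chr14:53196898-55493823) and, among several runs of 10, those on 3p from THOC7 to SUCLG2, on 9q from EGFL7 to C9orf142, which includes AGPAT2, and on 11q from a clone-named locus to NPAT. The 11q arm as a whole had a centred median of 0.13, with 28.5% of its loci below the range. Its run of 10 (chr11:107047012-108338258) holds ATM, a kinase of the DNA damage response, and a run of 9 at chr11:111652919-113185159 ends at NCAM1. Above the range, 8 consecutive loci at Xq28 (chrX:151307355-152038273) hold MAGEA6, MAGEA3 and MAGEA12, 4 of the 8 with a gap of at least 1. The runs were found, and their genes named, after the values were seen.

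**Figure D4:**
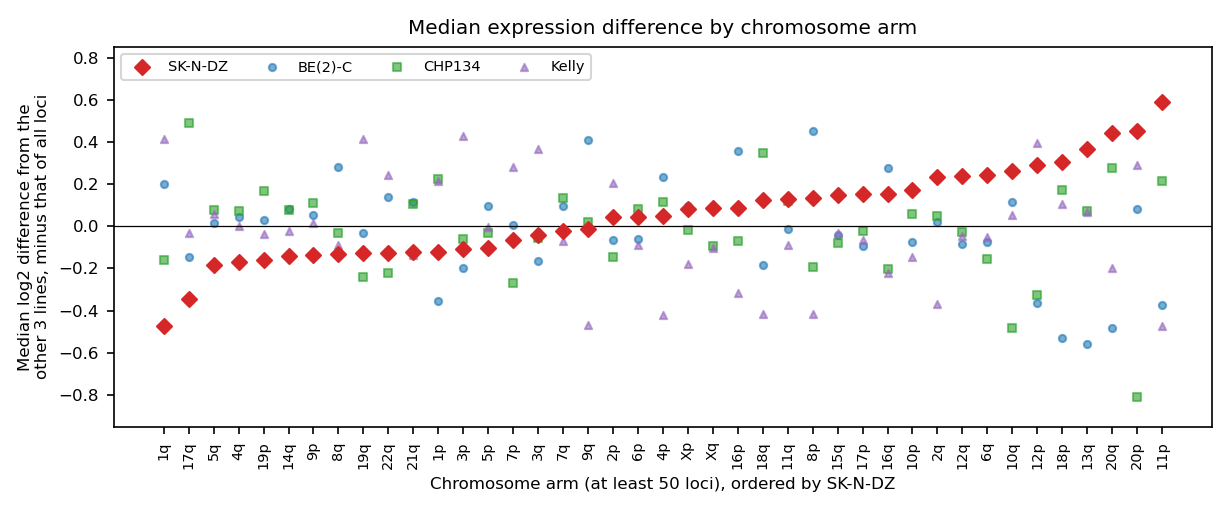
Median difference of each MYCN-amplified line from the other 3 on the log2 scale, minus the median over all loci, by chromosome arm in the order of SK-N-DZ, with 1 symbol per line. SK-N-DZ (diamonds) runs from -0.47 on 1q to 0.59 on 11p, against -0.81 in CHP134 on 20p, -0.56 in BE(2)-C on 13q and -0.47 in Kelly on 11p.

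Each of the 4 lines had loci apart from the other 3. Taken in the same way against the other 3, BE(2)-C had 531 loci above and 484 below with a gap of at least 1, CHP134 636 and 325, and Kelly 402 and 187, against 239 and 428 in SK-N-DZ. SK-N-AS and SY5Y were then placed at the loci of SK-N-DZ past this gap. These loci were chosen because SK-N-DZ lies apart from the comparison lines, and no baseline was computed, so the counts are a description. At the 239 loci above, SK-N-AS was nearer to SK-N-DZ than to the mean of the comparison lines at 60 (25.1%) and SY5Y at 71 (29.7%). At the 428 below, these numbers were 126 (29.4%) and 112 (26.2%). By annotated type, protein-coding single-gene loci past this gap were 128 above (1.44%) and 309 below (3.49%) of 8866. The lncRNAs were 9 (4.97%) and 4 (2.21%) of 181, and small RNAs 8 (18.6%) and 4 (9.3%) of 43. Among all single-gene loci, 1.84% lay above and 3.33% below. Across the loci, which are not independent, the difference fell with GC content: the median was -0.09 in the fifth of loci with the lowest GC content of their exons and -0.38 in the highest, with a Spearman's rho of -0.15 over 9533 loci (89.6% of the single-gene loci had a value). The part of GC content in the differences above was not tested. The gap of 1 marks no break in the data. Just past it were SPOPL (5.36 FPKM against 1.84 to 2.43 FPKM) and ADA (0.0794 FPKM against 0.661 to 4.41 FPKM), and just short of it ZNF215 (1.56 FPKM against 0 to 0.535 FPKM) and VDAC1 (44.9 FPKM against 90.2 to 130 FPKM).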

How the data were processed

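RNA of 6 neuroblastoma cell lines was sequenced by the authors, 1 library per line, after ribosomal RNA depletion and without strand marking. By the methods of the study the reads were aligned to hg19 with STAR. The deposited table gives 19170 loci and names no unit, and its values were read as FPKM computed by the authors. Depth in reads is unknown and whole reads could not be recovered, so no counting intervals are given. The lines were named from the labels and the MYCN status from the study's methods. Table starts were raised by 1, after which 2585 equalled GENCODE starts against 119 as deposited. All 6 value columns were mapped to a library.

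Loci with a gene name and at least 1 FPKM in 1 of the 4 MYCN-amplified lines were kept and set to log2(FPKM + 0.5). SK-N-DZ was compared with BE(2)-C, CHP134 and Kelly by the range rule and with limma 3.58.1 in R 4.3.3 (trended variance), where calls needed an absolute difference over 1 and a p under 0.05 after Benjamini-Hochberg adjustment. Such p-values measure only the spread between lines. Code was tested on simulated data. Python 3.11.15, pandas 2.3.3, numpy 2.4.6 and matplotlib 3.10.9 were used. Named genes were the 15 single-gene loci with the largest gap each way, the limma calls, up to 4 members with the largest gap in each list, and 9 further genes, MYCN among them. Some of the named genes are not reported here. The members and the 43 lists were chosen with earlier results of these data known. Alternatives covered the pseudocount, filter, scaling, unnamed loci, fit, gap and each comparison line left out.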

Additional observations from a re-analysis of the deposited data

Results flagged for a closer look

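Loci without a gene name were outside the comparison, and some held signal in SK-N-DZ above that of the comparison lines. Of 1117 such loci that reached 1 FPKM in 1 of the 4 lines, 221 lay above the range and 235 below it. A locus that reached 1 FPKM in SK-N-DZ alone entered through that line. In all, 99 lay above the range by a gap of at least 1 (8.86%) and 25 below it (2.24%), against 1.79% and 3.2% of named loci. Of those above, 14 lay at chr10:109038060-109616603 (hg19), with 1.19 to 4.77 FPKM in SK-N-DZ and at most 0.751 FPKM in a comparison line. Part of these loci overlap LINC01435. In the same way 6 loci within LINC02315 at chr14:41467578-41618850 reached 1.77 FPKM against at most 0.0797 FPKM, 25 loci at chr17:25416501-25505047 reached 1.90 FPKM against at most 0.431 FPKM, and 7 loci over LINC00910 at chr17:41415956-41442537 reached 2.59 FPKM against at most 0.416 FPKM. Neighbouring loci may be pieces of 1 transcript. No group held 4 lines, so that single outlying samples were not looked for.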

How the results depend on the processing

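The 3 loci called higher by limma became 0 with the smaller pseudocount tried, with 1 FPKM required in 2 of 6 lines, with no filter, with unnamed loci added and with small RNA loci left out, the last an alternative chosen after seeing the data, and 1 with a minimum of 5 FPKM. Without BE(2)-C, CHP134 or Kelly the calls ranged from 0 to 0. Adding SK-N-AS and SY5Y gave 4 higher and 1 lower. Past a gap of 1, the 239 loci above became 113 with a pseudocount of 2, 149 with 1 FPKM in 2 of 6 lines, 96 with a minimum of 5 FPKM and 68 at a gap of 2, and 328 to 532 with 1 comparison line left out. The 428 below became 222 with a pseudocount of 2, 72 at a gap of 2 and 700 to 929 with 1 line left out, since fewer lines give a narrower range. The share above among loci past the gap was 35.8%, against 49.5% with median-ratio size factors, 49.7% with quantile normalization, 42.7% with unnamed loci added, 25.9% with 1 FPKM in 2 of 6 lines and 21.9% with a minimum of 5 FPKM. For the other changes the cause was not tested. Of the 135 named loci past the gap, 0 changed sign in the 1694 values that 13 settings gave, since filters removed some loci. A gap of at least 1 from all 3 lines leaves the sign little room to change, so this is no support for these loci. Over all named loci, 1 changed sign with median-ratio size factors, 1 with quantile normalization and 3 without BE(2)-C. Of 42 list medians, 8 changed sign with median-ratio scaling, 9 with quantile normalization and 10 against BE(2)-C alone, the line grown in the same medium. No paired analysis was possible because 1 library stood against 3 different lines. A count test was not run, since whole reads could not be recovered.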
